A study of Mus musculus with 6 samples.

Results

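IL-6 family signalling and its SOCS inhibitors were examined in sorted mouse microglia through 10 genes: the ligands Il6, Osm and Lif, the receptor subunits Il6ra and Il6st, the transcription factor Stat3, and the inhibitors Socs1, Socs2, Socs3 and Cish. The genes were chosen by name, not by their measured values, and were covered by 16 array probes among 56605 probes and 23462 named genes. Microglia at rest were compared between PGC-1αf/f mice and mPGC-1α mice, which are bred to overexpress PGC-1α in microglia, with 3 arrays in each group. The PGC-1αf/f mice, the controls, carry a PGC-1α transgene with a fluorescent tag, which is not expressed unless Cre recombines it. The mPGC-1α mice carry the same transgene together with Cx3cr1-CreER, a tamoxifen-inducible Cre inserted into the Cx3cr1 locus. Cx3cr1-CreER is active in microglia and also in other myeloid cells that use Cx3cr1. The groups thus differ in this insertion as well as in PGC-1α, and the comparison cannot tell the effects apart. All mice were labelled male and 10 weeks old, had a C57BL/6 background, and their microglia were isolated with magnetic beads through the surface receptor P2RY12. The study's methods describe tamoxifen treatment before experiments, and the labels do not give it for single samples.

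Most cytokines of the IL-6 family signal through a shared receptor subunit, gp130, encoded by Il6st, which pairs with a ligand-specific subunit such as the IL-6 receptor. Janus kinases bound to the receptor then phosphorylate STAT3, which enters the nucleus and switches on target genes. SOCS proteins and CISH are induced by STATs and shut the pathway down again, so that their transcripts are often read as a trace of recent cytokine signalling. In the brain, microglia carry these receptors and can themselves release IL-6 and oncostatin M.

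Among the members, the transcripts of Socs3, Cish and Osm had a higher mean in mPGC-1α microglia and the transcript of Il6st a lower one, and in these 4 genes the groups did not overlap, as in 12.2% (higher) and 10.8% (lower) of all tested genes. None of the differences passed an adjusted p of 0.05. The largest were those of Cish, 1.11 on the log2 scale (SE 0.36, n = 3 each), and Socs3, 0.94 (SE 0.29, n = 3 each). Osm differed by 0.51 (SE 0.16) and Il6st by -0.44 (SE 0.17). Il6, Il6ra, Stat3, Socs1 and Socs2 had overlapping groups, and Lif was well above background on 0 of 6 arrays.

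Because the SOCS genes are themselves STAT targets, the letters of the STAT consensus, TTCNNNGAA, were searched on both strands of the RefSeq promoter windows (assembly GRCm38.p6), which run from 250 bases before to 50 bases after a start. A window was given for 8 of the 10 members, all but Osm and Socs2. The letters were found in the windows of Socs3 and Cish, and the stretches that hold them are printed with the matches in capitals.
Socs3, chr11:117969501-117969530, minus strand: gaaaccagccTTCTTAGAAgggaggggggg
Cish, chr9:107296409-107296679, plus strand: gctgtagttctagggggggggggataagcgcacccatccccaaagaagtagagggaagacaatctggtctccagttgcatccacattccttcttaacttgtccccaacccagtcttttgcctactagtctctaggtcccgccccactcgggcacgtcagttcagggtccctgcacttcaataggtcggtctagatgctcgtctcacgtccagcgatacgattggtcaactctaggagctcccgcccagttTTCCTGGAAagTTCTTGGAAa
The Cish window held 2 matches, at bases 1 and 12 counted from the start, and the Socs3 window held 1, whose first base lay at -154. The start used for the Socs3 window lay 970 bases inside the outer end of the gene in the same annotation, and that of Stat3 54 bases inside. Of all 32851 windows, 8.3% held the STAT letters. The AP-1 letters TGANTCA stood in the windows of Il6, at -249, and Lif, at -228, and in 7.81% of all windows, and the CRE letters TGACGTCA stood in none of the 8 windows and in 1.79% of all. A match describes the sequence and does not show that a factor was bound there.

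Before the members are described, the arrays themselves need to be known. Signal at the 75th percentile was 1012 to 2138 intensity units, 27025 to 30272 of 59305 spots were well above background, and 0 spots were saturated. All levels below are log2 signal minus that percentile of the array, so that 0 is the level of a probe at the 75th percentile. Array PGC-1αf/f 3 stood apart, correlating with the others at 0.928 on average, against 0.962 to 0.972 for the rest. On array mPGC-1α 3, 0 of 4 Y-linked genes were well above background, although the mouse was labelled male, and on the other 5 arrays all 4 were. Xist, which is expressed in female cells, was well above background on that array (-1.63) and also on PGC-1αf/f 2 (-2.78) and mPGC-1α 2 (-2.40), which carried Y-linked transcripts as well, but not on the other 3 arrays. Without PGC-1αf/f 2 the differences described below were 1.13 for Socs3, 1.30 for Cish, 0.56 for Osm and -0.50 for Il6st, and without mPGC-1α 2 they were 0.84, 1.27, 0.52 and -0.58. The 3 PGC-1αf/f arrays lay in row 1 of a slide and the 3 mPGC-1α arrays in row 2, so that slide row and group cannot be told apart. Within slide columns 1 and 2, which both groups shared, a difference could be taken between neighbouring arrays. Ppargc1a, the targeted gene, gave 0.80 (SE 0.35, limma adjusted p = 0.306) with overlapping groups.

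**Figure D1:**
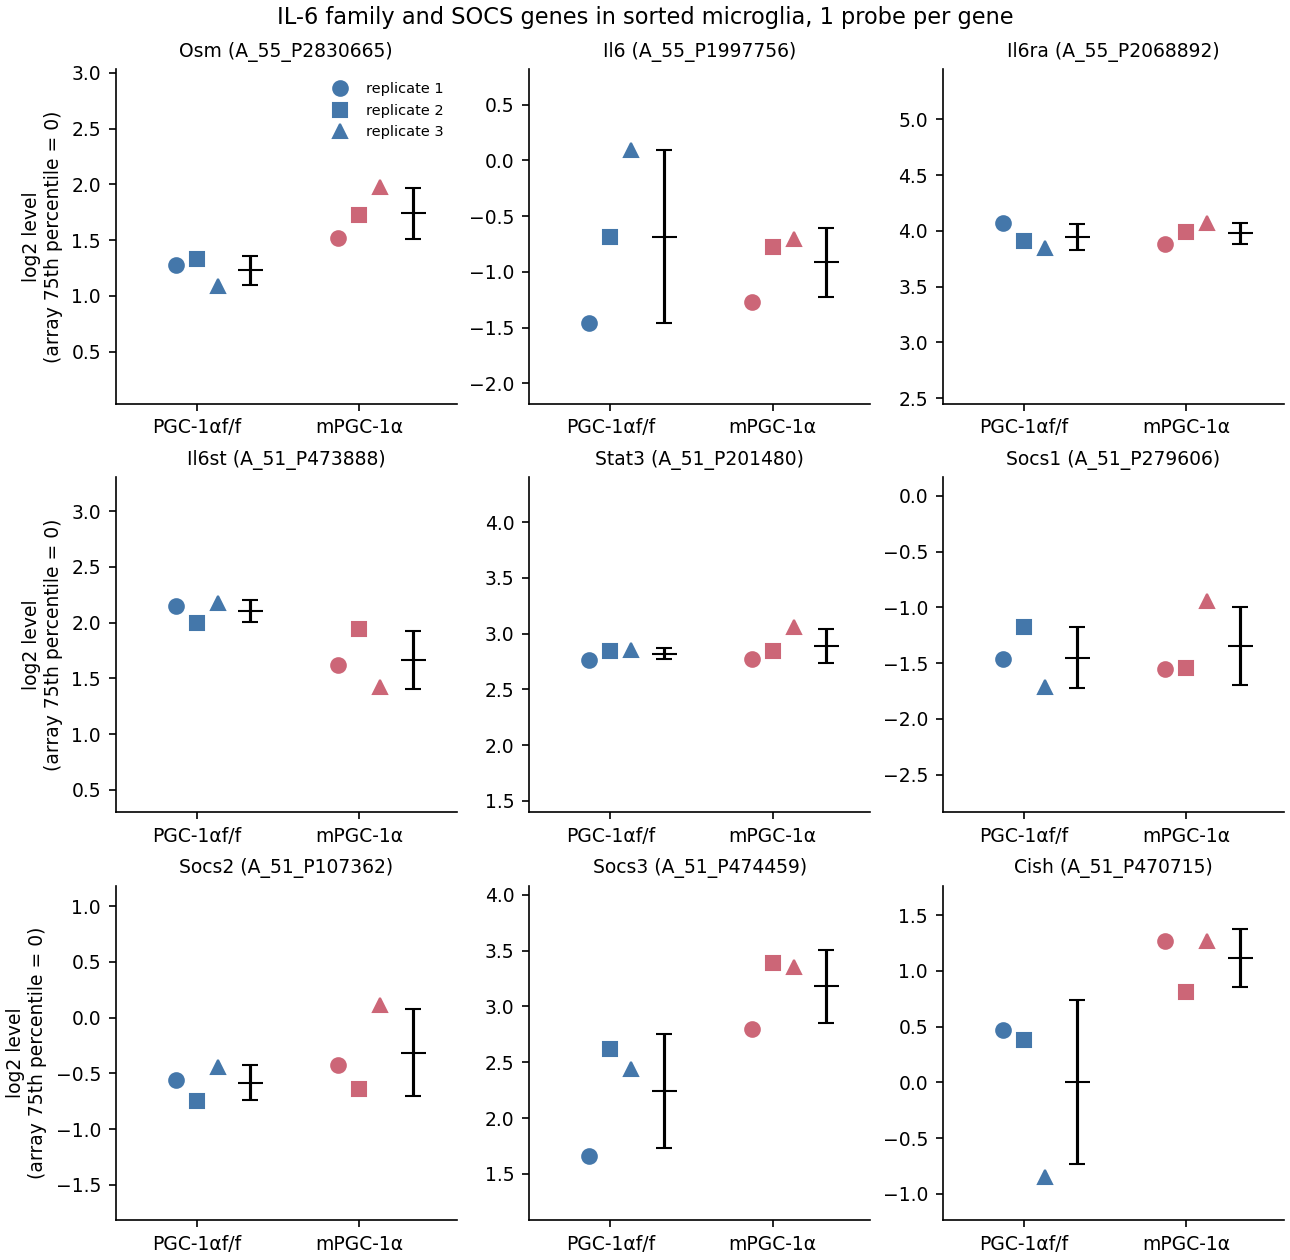
Log2 level (array 75th percentile = 0) of the 9 tested members on each array, 1 probe per gene, with the symbol shape giving the replicate number and black bars the mean ± SD of 3 arrays; every panel spans 3 log2 units, but the levels of different probes cannot be compared. The groups do not overlap for Osm, Socs3, Cish and Il6st, and the low PGC-1αf/f points are replicate 3 for Cish (-0.85) and replicate 1 for Socs3 (1.66).

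The ligands were considered first. Osm encodes oncostatin M, a gp130 cytokine made mainly by myeloid cells. Its bright probe (A_55_P2830665) gave log2 levels of 1.27, 1.33 and 1.09 in the PGC-1αf/f group and 1.52, 1.72 and 1.98 in mPGC-1α microglia. Every mPGC-1α array thus lay above every PGC-1αf/f array, with the highest level on mPGC-1α 3. The means were 1.23 ± 0.13 (SD, n = 3) and 1.74 ± 0.23 (SD, n = 3). They differed by 0.51 on the log2 scale, or 1.42-fold (95% interval 0.12 to 0.90, limma adjusted p = 0.228). Within slide columns 1 and 2 the difference was 0.25 and 0.39, without array PGC-1αf/f 3 it was 0.44, without mPGC-1α 3 it was 0.39, and without both it was 0.32, a move of more than 1.5 times. A second Osm probe (A_52_P348614) was well above background on 0 of 6 arrays, with signals of 24.0 to 33.9 intensity units, and was not tested.

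Il6 encodes interleukin-6, the founding cytokine of the family. Its brighter probe (A_55_P1997756) gave log2 levels of -1.46, -0.68 and 0.10 in the controls and -1.27, -0.78 and -0.70 in mPGC-1α microglia. The controls were the more scattered group and enclosed all mPGC-1α arrays, with PGC-1αf/f 3 the highest of the 6. The difference was -0.23 (SE 0.38, 95% interval -1.14 to 0.68, limma adjusted p = 0.777). It turned to 0.16 without PGC-1αf/f 3 and was -0.62 without PGC-1αf/f 1. The dimmer Il6 probe (A_55_P2733612) gave -2.12, -1.45 and -1.12 in the controls and -1.84, -1.86 and -2.62 in mPGC-1α microglia, again with overlap. That difference was -0.54 (SE 0.32, limma adjusted p = 0.409), and it was -0.06 without replicate 3 of both groups. The interval of the brighter probe held both lower and higher levels in mPGC-1α microglia, so that no direction could be given with 3 arrays a group. Lif encodes leukemia inhibitory factor, and its single probe (A_66_P134488) gave 23.6 to 25.2 intensity units on the 6 arrays, none well above background, so that it received no fold change or test.

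Next in the pathway stand the receptor subunits. Il6st encodes gp130, the shared signalling subunit. Its bright probe (A_51_P473888) gave log2 levels of 2.15, 2.00 and 2.17 in the PGC-1αf/f group and 1.62, 1.95 and 1.43 in mPGC-1α microglia. The mPGC-1α arrays were all lower, although mPGC-1α 2 came within 0.05 of the lowest control, its neighbour in slide column 2. PGC-1αf/f microglia averaged 2.11 ± 0.10 (SD, n = 3) and mPGC-1α microglia 1.67 ± 0.26 (SD, n = 3). In limma mPGC-1α minus PGC-1αf/f was -0.44 (SE 0.17, 95% interval -0.84 to -0.04, limma adjusted p = 0.273). The within-column differences were -0.52 and -0.05, and the difference was -0.41 without PGC-1αf/f 3, -0.32 without mPGC-1α 3 and -0.29 without both, so that it moved by more than 1.5 times when both were left out. A second, dim Il6st probe (A_55_P2917440) gave -2.73, -2.49 and -2.51 in the controls and -2.98, -2.45 and -3.25 in mPGC-1α microglia. Here the groups overlapped through mPGC-1α 2, and the difference was -0.32 (SE 0.22, limma adjusted p = 0.48). It was -0.14 without mPGC-1α 3, -0.54 without mPGC-1α 2 and -0.10 without replicate 3 of both groups. Over the 6 arrays the Il6st probes had a Pearson r of 0.86.

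Il6ra encodes the IL-6 receptor, whose presence decides which cells respond to IL-6 directly. Its bright probe (A_55_P2068892) lay far above the 75th percentile, at 4.07, 3.91 and 3.85 in the controls and 3.88, 3.99 and 4.07 in mPGC-1α microglia. The groups shared the same range, and the difference was 0.04 (SE 0.13, 95% interval -0.28 to 0.35, limma adjusted p = 0.905). A much dimmer probe (A_51_P415855) gave -0.45, -0.72 and -0.60 against -0.57, -0.73 and -1.53, where mPGC-1α 3 alone stood low. It differed by -0.35 (SE 0.26, limma adjusted p = 0.507) and by -0.06 without mPGC-1α 3, and the Il6ra probes had an r of -0.45 over the 6 arrays.

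Stat3, the transcription factor that carries the signal to the nucleus, was even across arrays. Its bright probe (A_51_P201480) gave 2.77, 2.84 and 2.85 in the controls and 2.77, 2.84 and 3.06 in mPGC-1α microglia, a difference of 0.07 (SE 0.13, 95% interval -0.25 to 0.39, limma adjusted p = 0.81). A second probe (A_55_P1991219) ranged from -1.26 to -1.02 in the controls and from -1.40 to -0.99 in mPGC-1α microglia and differed by -0.03 (SE 0.16, limma adjusted p = 0.938). On the bright probe only mPGC-1α 3 stood above the rest, and on the dimmer one the same array was the lowest.

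Of the 4 inhibitors, Socs3 and Cish differed more than any other member and Socs1 and Socs2 less than Osm and Il6st. Socs3 encodes the suppressor that binds gp130 and blocks its Janus kinases, and it is the main brake on IL-6 signalling. Its probe (A_51_P474459) gave 1.66, 2.62 and 2.44 in the controls and 2.80, 3.39 and 3.35 in mPGC-1α microglia. All mPGC-1α arrays lay above all controls, and PGC-1αf/f 1 was the lowest of the 6. The means were 2.24 ± 0.51 (SD, n = 3) and 3.18 ± 0.33 (SD, n = 3). This amounted to 0.94 or 1.92-fold (SE 0.29, 95% interval 0.26 to 1.63, limma adjusted p = 0.216). The within-column differences were 1.14 and 0.77. The difference was 1.04 without PGC-1αf/f 3, 0.85 without mPGC-1α 3 and 0.96 without both, and was smallest, at 0.65, without PGC-1αf/f 1.

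Cish encodes a SOCS family member induced through STAT5 by cytokines and by growth hormone. Its probe (A_51_P470715) gave 0.47, 0.38 and -0.85 in the controls and 1.27, 0.81 and 1.26 in mPGC-1α microglia. The groups did not overlap, and PGC-1αf/f 3 lay more than 1 log2 unit below the other controls. The means were -0.00 ± 0.74 (SD, n = 3) and 1.11 ± 0.26 (SD, n = 3). They lay 1.11 apart, or 2.16-fold (SE 0.36, 95% interval 0.26 to 1.97, limma adjusted p = 0.23). Without PGC-1αf/f 3 the difference was 0.69, without mPGC-1α 3 it was 1.04, and without both it was 0.62. The value thus moved by more than 1.5 times when PGC-1αf/f 3 was left out, and the within-column differences, which do not use that array, were 0.80 and 0.43.

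Socs1 and Socs2 did not stand out. Socs1, an inhibitor chiefly of interferon signalling, gave -1.46, -1.17 and -1.72 against -1.55, -1.54 and -0.95 (probe A_51_P279606), where mPGC-1α 3 was the highest and the others were mixed. It differed by 0.10 (SE 0.23, 95% interval -0.43 to 0.64, limma adjusted p = 0.837), and by -0.10 without mPGC-1α 3. Socs2, a regulator of growth hormone signalling, gave -0.56, -0.75 and -0.44 against -0.42, -0.64 and 0.12 on its brighter probe (A_51_P107362), again with mPGC-1α 3 the highest. The difference was 0.27 (SE 0.22, limma adjusted p = 0.546) and 0.05 without mPGC-1α 3. Its second probe (A_55_P1992838) ranged from -2.40 to -1.75 in the controls and from -2.07 to -1.59 in mPGC-1α microglia, a difference of 0.22 (SE 0.22, limma adjusted p = 0.614). That value was 0.08 without PGC-1αf/f 1, also 0.08 without mPGC-1α 3, and 0.40 without PGC-1αf/f 3.

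**Figure D2:**
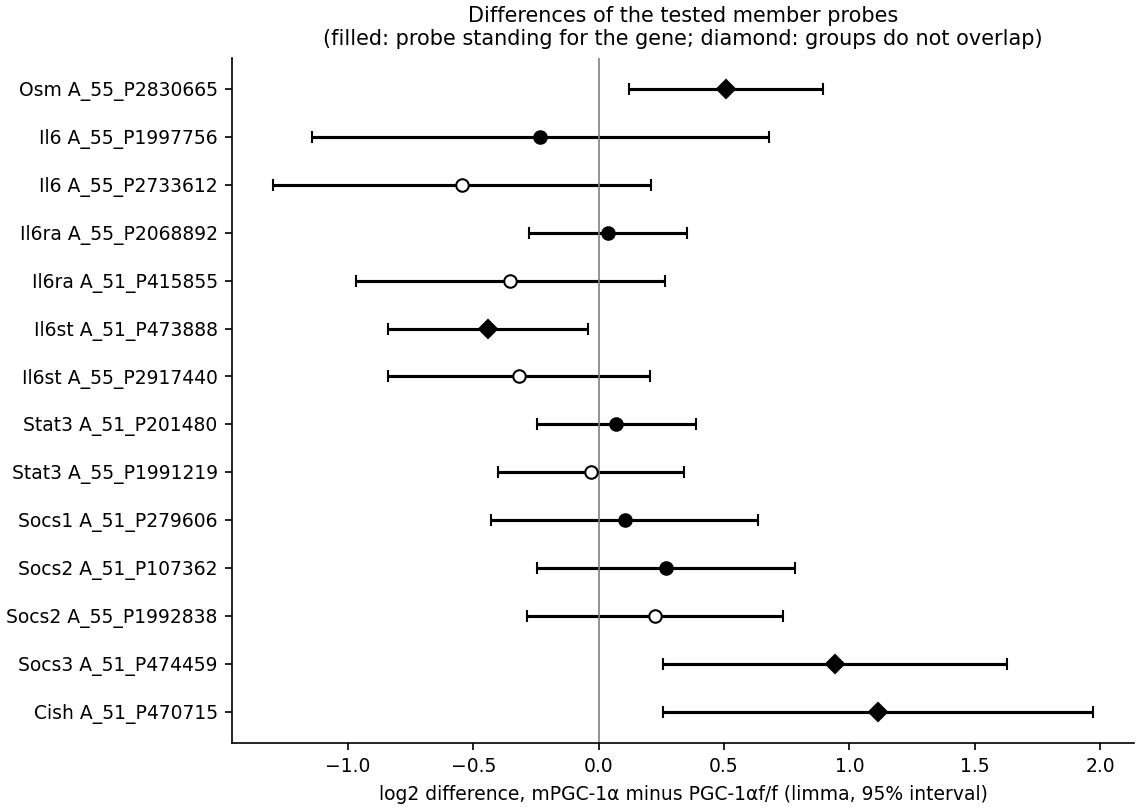
Log2 difference of the 14 tested member probes, mPGC-1α minus PGC-1αf/f, with the 95% interval from limma; filled symbols stand for the gene, open symbols are second probes, and diamonds mark probes whose groups did not overlap. The intervals of Osm (0.12 to 0.90), Socs3 (0.26 to 1.63) and Cish (0.26 to 1.97) lie above 0 and that of the bright Il6st probe (-0.84 to -0.04) below it, before any adjustment for the number of probes.

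Counted together, 0 of the 9 tested members passed an adjusted p of 0.05, where 0.065% of the 12302 tested genes did. An unadjusted limma p under 0.05 was reached by 3 members with higher and 1 with lower values in mPGC-1α microglia, against 8.16% and 5.71% of all tested genes. With single arrays left out in turn, 1 to 3 higher and 0 to 1 lower members reached that p. With all arrays the groups did not overlap for 3 higher members and 1 lower, against 12.2% and 10.8% of all genes. Over the members the median difference was 0.10, with 7 differences above 0 and 2 below, and over all genes the median was 0.03. With 9 genes, such counts describe the list and show nothing particular to it.

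**Figure D3:**
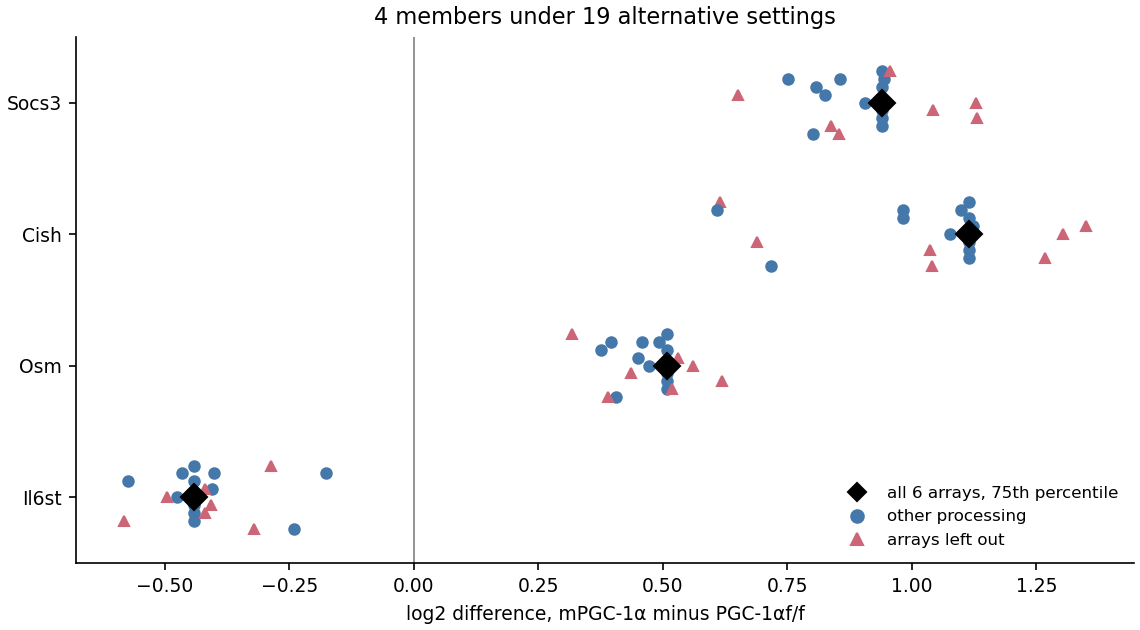
Log2 difference, mPGC-1α minus PGC-1αf/f, of Socs3, Cish, Osm and Il6st with all 6 arrays (black diamond) and under 19 alternatives, either in processing (blue circles) or leaving out arrays (red triangles). No point crosses 0, and the differences ran from 0.65 to 1.13 for Socs3, from 0.61 to 1.35 for Cish, from 0.32 to 0.62 for Osm and from -0.58 to -0.18 for Il6st.

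The rest of the pathway was read from a list of 66 other genes, of which 57 were tested and 52 had values on all 6 arrays. Of these 52, 0 passed an adjusted p of 0.05, 29 differences were above 0 and 23 below, and the median was 0.02. An unadjusted p under 0.05 was reached by 4 genes with higher values, Timp1, Bcl3, Ctf1 and Pim1, and by 1 with lower values, Gab1. Of all tested genes, 8.16% and 5.71% did. With single arrays left out in turn, 3 to 7 higher and 1 to 2 lower pathway genes reached that p.

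By role, 4 of the 10 other ligands were tested, and 4 were well above background on 0 of 6 arrays. Ctf1, which encodes the gp130 cytokine cardiotrophin-1, gave -1.97, -2.47 and -3.02 in the controls and -1.21, -1.74 and -1.55 in mPGC-1α microglia. Its groups did not overlap, with PGC-1αf/f 3 the lowest, and its difference was 0.99 (SE 0.28, limma adjusted p = 0.197). Of the receptors and the proteases that shed them, 10 of 12 were tested, with 4 differences above 0 and 6 below. Lifr, the LIF receptor and a partner of gp130, gave 3.16, 2.80 and 2.72 against 3.09, 2.79 and 2.73, a difference of -0.02 (SE 0.18, limma adjusted p = 0.957). Osmr, the oncostatin M receptor subunit, was well above background on 0 PGC-1αf/f and 2 mPGC-1α arrays and was not tested. These receptor genes were named after their values had been seen, because they pair with the members.

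The Janus kinases gave 3 differences with values on all arrays, 2 above 0 and 1 below, and the 6 other STATs gave 4 above and 2 below. One of the 4, Stat4, was well above background on 1 control array and all 3 mPGC-1α arrays, so that it was tested only through the group where it is higher. Among the STATs, Stat2 differed by 0.33 (SE 0.16, limma adjusted p = 0.338) and by 0.20 under a median shift, and its groups were narrowly separate, with the lowest mPGC-1α array at 0.97 and the highest control at 0.95. Of the 14 other inhibitors and phosphatases, which include Socs4 to Socs7, the PIAS proteins and the SHP phosphatases, 6 differences were above 0 and 8 below, with a median of -0.04, and 0 reached an unadjusted p under 0.05. Gab1, an adaptor that links gp130 to the SHP2 and MAP kinase arm, gave -0.93, -1.09 and -0.51 in the controls and -1.50, -1.58 and -1.92 in mPGC-1α microglia. No mPGC-1α array reached the lowest control, and the difference was -0.82 (SE 0.20, limma adjusted p = 0.163), and it was -0.53 without replicate 3 of both groups. All 3 adaptors with values on all arrays had differences below 0.

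Among the STAT3 and STAT5 target genes, 11 of the 12 with values on all arrays had a difference above 0, and the median was 0.30. That count includes Timp1, whose limit is given below. Of the tested genes lacking a value on an array, Fgl2 differed by -0.55, Mcl1 by 0.13 and Cebpb by 0.09. Over all 12302 tested genes, 6650 differences were above 0 and the median was 0.03. Bcl3, a nuclear IκB protein, gave -1.62, -0.09 and -1.05 in the controls and -0.04, 0.84 and 0.98 in mPGC-1α microglia. All mPGC-1α arrays lay above all controls, though mPGC-1α 1 exceeded PGC-1αf/f 2 only narrowly, and the difference was 1.52 (SE 0.43, limma adjusted p = 0.197) and 0.97 under array weights estimated by REML. Timp1, which encodes a metalloproteinase inhibitor, was well above background on 1 of 3 control arrays and on all mPGC-1α arrays. It gave -3.80, -3.71 and -4.06 against -2.48, -3.44 and -1.05, and the fitted difference of 1.54 (SE 0.55, limma adjusted p = 0.253) thus includes control signals not well above background. It was 0.90 without mPGC-1α 3 and 0.69 under the same array weights. Timp1 was tested only because all arrays of the group where it is higher were well above background, and its count among the higher genes supports nothing. Pim1, a kinase gene, overlapped between groups because PGC-1αf/f 2, at 1.88, lay above mPGC-1α 1, at 1.81, and it differed by 0.94 (SE 0.34, limma adjusted p = 0.26). Within slide column 2 that difference was 0.07, and it was 0.23 under those array weights.

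**Figure D4:**
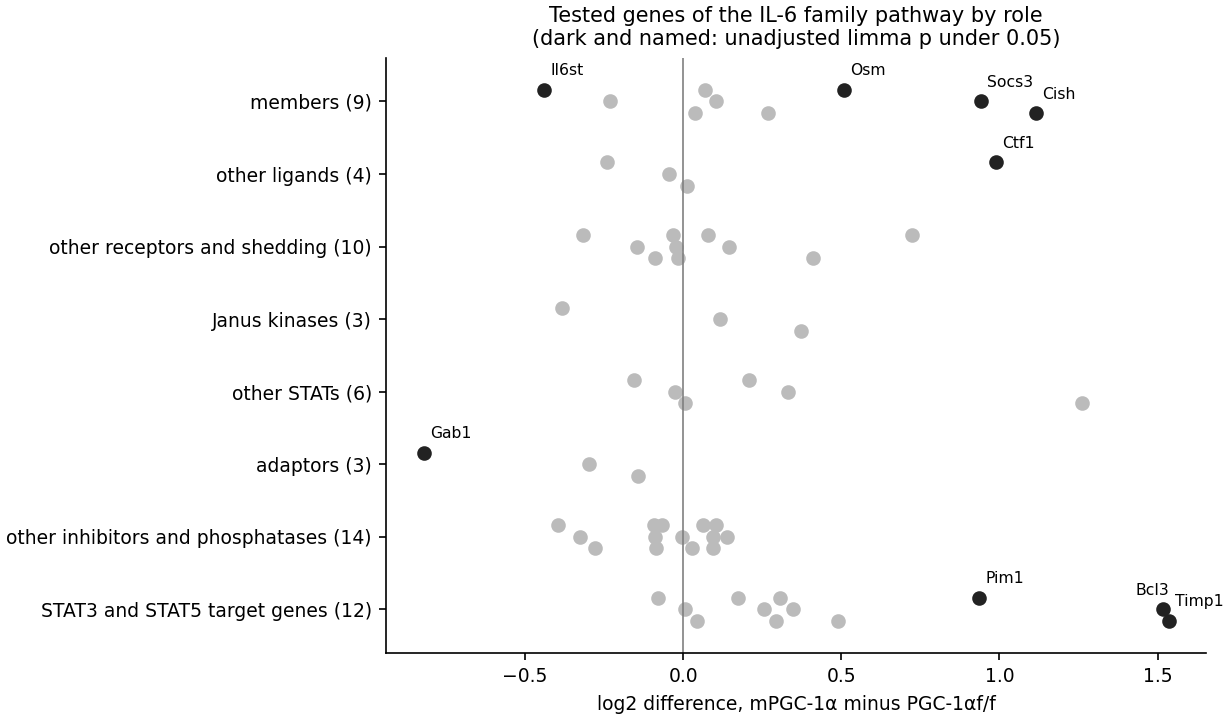
Log2 difference, mPGC-1α minus PGC-1αf/f, of the 9 tested members and of 52 other pathway genes with values on all arrays, by role (number of genes in brackets); dark named points have an unadjusted limma p under 0.05, and 0 genes passed an adjusted p of 0.05. Of the STAT target genes with values on all arrays 11 of 12 lie above 0, Timp1 among them, and of the other inhibitors and phosphatases 6 of 14.

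Marker lists of other cells and a list of immediate-early genes were read on the same arrays, and some of them moved with these genes. Astrocyte markers (6 genes, median difference 0.03, 3 above 0) and neuronal markers (7 genes, median 0.20, 6 above 0) had 0 genes whose groups did not overlap. All 15 microglial markers, P2ry12 and Tmem119 among them, were tested. The mean level of the 9 with values on all arrays was 3.92 to 4.19 in PGC-1αf/f and 3.81 to 3.98 in mPGC-1α microglia. Neutrophil markers, given below, were also bright on every array but PGC-1αf/f 3, so these levels do not show how pure the sorted cells were. Of the 9 microglial markers, 2 had a difference above 0 and 7 below, and the median was -0.05. In 2 the groups did not overlap, both lower, against 10.8% of all tested genes, and 0 passed an adjusted p of 0.05. The immediate-early and dissociation genes include Egr1 and Dusp1 and can be induced while tissue is dissociated. As a mean of 14 genes they lay between -0.02 and 0.22 in the controls and between 1.16 and 1.29 in mPGC-1α microglia. Whether dissociation, slide row or genotype raised them was not tested. Of the 14 genes, 13 had a difference above 0, with a median of 1.11. The groups did not overlap in 10, all higher, against 12.2% of all tested genes. An adjusted p of 0.05 was passed by 2, against 0.065%. Hspa1a and Hspa1b count among the 10, though they were well above background on only 2 and 1 control arrays. They were tested only through the group where they are higher. Socs3, Cish, Osm and Bcl3 were higher on the same 3 arrays as this list, and its part in their differences was not tested.

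Neutrophil and blood myeloid markers had a mean level of 2.65, 3.04 and -0.43 in the controls and of 3.00, 3.25 and 3.29 in mPGC-1α microglia. On array PGC-1αf/f 3 the list was thus more than 3 log2 units below the other controls, and the same array had the lowest level of Cish, Osm and Ctf1 and the highest of Il6. Over the list 13 of 14 genes had a difference above 0, with a median of 1.44. The groups did not overlap in 3, all higher, against 12.2% of all tested genes. Of the list 0 genes passed an adjusted p of 0.05, and 0 of the 15 listed genes were below background on all arrays. Lymphocyte markers (7 genes with values) had a median difference of 0.85, with 3 listed genes well above background on 0 of 6 arrays, and endothelial and mural markers (7 genes, with 2 more listed genes well above background on 0 arrays) had one of 0.74. Both lists were also lowest on PGC-1αf/f 3. The lymphocyte mean was -0.85, -0.28 and -1.78 in the controls against -0.70, -0.40 and 0.13, and the endothelial mean was 0.06, -0.22 and -1.64 against -0.40, 0.08 and 0.44, so that on either list the groups overlapped among the remaining arrays. Border macrophage markers (7 genes) had a median difference of 0.31 with 6 of 7 above 0, and their mean level was 0.13 to 0.32 in the controls and 0.09, 0.45 and 0.89 in mPGC-1α microglia, highest on mPGC-1α 3, as were Osm, Socs1 and Socs2. Oligodendrocyte markers had a mean level of 0.14 to 0.57 in the controls and -0.41 to -0.17 in mPGC-1α microglia, with a median difference of -0.58 and 7 of 8 genes below 0, so that they, like Il6st, were lower on every mPGC-1α array. Their part in these results was not tested, and in bulk RNA fewer cells of a type and less RNA per cell cannot be told apart. Measured without PGC-1αf/f 3, the differences were 1.04 for Socs3, 0.44 for Osm, -0.41 for Il6st and 0.69 for Cish, which moved most. Without replicate 3 of both groups Osm fell to 0.32, and the difference of Il6st also became smaller, as given above. The immediate-early and oligodendrocyte lists stay separate between groups on the remaining arrays, so leaving out arrays does not test the part of any list.

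**Figure D5:**
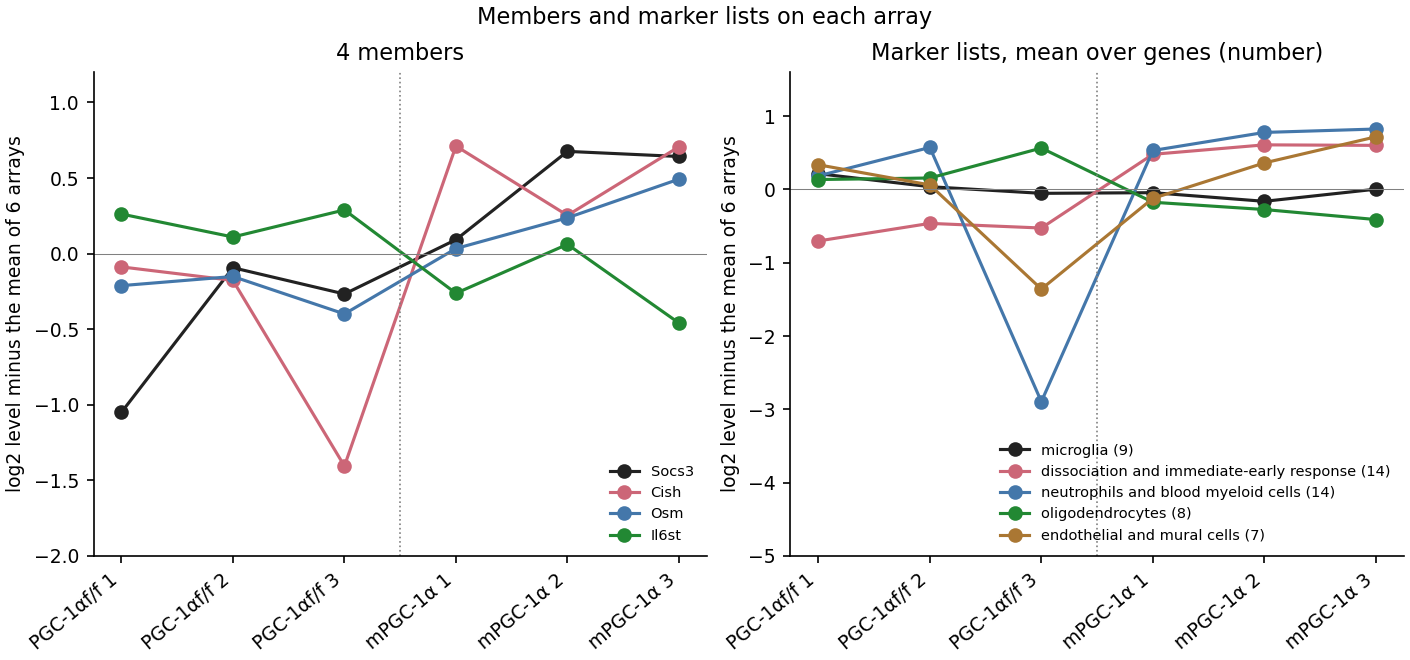
Log2 level on each array minus the mean of the 6 arrays, for 4 members (left) and for the mean of 5 marker lists (right, number of genes in brackets; the vertical scales differ), with a dotted line between the groups. The immediate-early list steps up at the dotted line together with Socs3, Cish and Osm, and the neutrophil list drops on PGC-1αf/f 3, where Cish is lowest.

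Genes whose levels followed those of the members most closely over the 6 arrays were taken from 11564 genes well above background on every array, as a description without a test, since all share the same 6 arrays and scaling. Socs3 was closest to Pilra (Pearson r = 0.996) and Rgs1 (0.992), Cish to Sgk3 (0.996) and Optn (0.994) and Osm to Pemt (0.999) and H2bc3 (0.998). Tbc1d2b (0.989) was among the closest to Il6st. With 6 arrays and that many genes, correlations of this size were also reached for members whose groups overlapped.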

How the data were processed

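The deposited scanner files give spot intensity from Agilent Feature Extraction 11.5.1.1, with background subtracted by the authors' software; the deposited series table held the same values to within 0.497% and was not normalized between arrays. For the study, GeneSpring is named for normalization, with no test per gene. RNA had been amplified and labelled with Cy5, 1 colour per array. Here, outlier spots were left out, the 75th percentile of an array was subtracted from its log2 intensity, and a probe was tested where every array of either group had it well above background (25333 of 56605 probes, 25257 with a p-value) by limma 3.58.1 in R 4.3.3, two-sided, with Benjamini-Hochberg adjustment over all tested probes. A gene was read from its brightest tested probe with values on all arrays. Symbols came from RefSeq accessions. Beyond the members, named pathway genes were up to 4 at each end with an unadjusted p under 0.05 and separate groups. Stat2, Stat4, Pim1, Lifr and Osmr were named after their values were seen, and the 2 most correlated genes were taken per member. Some genes these rules name are not reported here. The members and lists were chosen with earlier results of these data known. Labels do not say how samples relate to animals, so p-values measure the spread between these samples. The fit was tested on simulated data. The number of arrays limits the precision. The 19 alternatives covered scaling, background, filters, blocks, array weights and left-out arrays. Figures were drawn with matplotlib 3.10.9.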

Additional observations from a re-analysis of the deposited data

How the results depend on the processing

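Under 18 of 19 alternatives 0 members passed an adjusted p of 0.05. The other, array weights estimated by REML over probes with values on all arrays, was chosen after seeing the data. It passed 2 members, Socs3 (0.75, adjusted p = 0.047) and Osm (0.40, adjusted p = 0.0415), and 2 pathway genes, Ctf1 (0.83) and Gab1 (-0.55), where 3494 probes passed in place of 20. Default array weights gave 754 probes and 0 members. Over all alternatives the limma adjusted p ran from 0.047 to 0.6 for Socs3 and from 0.0415 to 1 for Osm. The deposited table without normalization passed 2 pathway genes, Bcl3 (adjusted p = 0.0325) and Timp1 (adjusted p = 0.0298), and 0 members. The causes were not tested.

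The replicate number as a block passed 0 members and 0 of all probes. Samples with the same number had correlated deviations of 0.14, 0.13 and 0.02, and were not taken as pairs.

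Signs turned only for small differences of overlapping groups. With quantile normalization the bright Stat3 probe differed by -0.0304 and Il6ra by -0.0776, with a median shift by -0.0621 and -0.0959, and with normexp by -0.0153 and -0.0960. Socs1 was at -0.0295 with a median shift, -0.190 with array weights and -0.263 with REML weights. The second Stat3 probe was at 0.0696 with array weights, 0.0166 with slide columns as random blocks and 0.0859 with REML weights. Without replicate 3 of both groups Socs1 was at -0.231, the second Stat3 probe at 0.144, Il6 at 0.0507 and Il6ra at -0.0561. Leaving out each array in turn gave -0.0139 to 0.13 for the bright Stat3 probe, -0.118 to 0.0854 for the second, -0.0972 to 0.242 for Socs1, -0.622 to 0.157 for Il6 and -0.0110 to 0.101 for Il6ra. A median shift moved the median of all probes to -0.14. By size, default array weights moved Il6st to -0.24 and Cish to 0.72. Leaving out single arrays passed 0 members throughout and 0 to 25 of all probes.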

Other observations

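The members not described above by their nearest genes had these, by Pearson r over the 6 arrays: Il6, AI504432 (0.996) and Vps9d1 (0.995); Il6ra, Tln2 (0.993) and Gm4971 (0.983). For Stat3 they were Zpr1 (0.991) and BC004004 (0.990), for Socs1 Rnase6 (0.991) and Gm6579 (0.983), and for Socs2 Tmem63b (0.976) and Pex16 (0.969).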
